A study of Mus musculus with 75 samples.

Results

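The regions described here are domain boundaries that entered the deposited domain lists at the last of 5 stages between mitosis and G1. A late-G1 boundary was a distinct start or end of a late-G1 domain, and it was kept if no domain edge of any of the 4 earlier stages lay within 20 kb. This left 2155 of 13553 late-G1 boundaries, or 15.9%, and they are called late-G1-only boundaries below. The other 11398 were already within 20 kb of an edge in pro-metaphase (2551), first in ana/telophase (3953), first in early G1 (3568) or first in mid G1 (1326).

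Domains are stretches of chromosome in which loci contact each other more often than they contact loci outside, and a boundary is where one such stretch ends. CTCF is a DNA-binding protein that sits at many boundaries, and Rad21 belongs to cohesin, a ring-shaped complex that extrudes loops of chromatin until CTCF halts it. Domains are largely lost when chromosomes condense in mitosis and form again as cells enter G1.

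The cells were G1E-ER4, a mouse erythroid subline of the GATA1-null proerythroblast line G1E (strain 129), used without induction of GATA1 at every stage. They were held in pro-metaphase with nocodazole, which blocks microtubules, at 200 ng/ml for 7 to 8.5 h. They were then collected by cell sorting 0 min (pro-metaphase), 25 min (ana/telophase), 60 min (early G1), 120 min (mid G1) or 240 min (late G1) after release. Each stage had 2 Hi-C samples, 2 Rad21 ChIP-seq samples and 2 CTCF ChIP-seq samples (3 in pro-metaphase), with 2 samples of asynchronous cells for each protein. All come from 1 cell line, and each stage contributed 1 list per feature that pools its samples, so no comparison below has replicates and none carries a p-value.

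The late-G1 list was the longest domain list, with 10899 domains against 2509, 5531, 9210 and 10286 at the earlier stages in order. The CTCF lists held 11604 peaks in pro-metaphase and 33127 to 36009 at the later stages, and the Rad21 lists grew from 596 in pro-metaphase to 18958 in late G1. Read depth is unknown from these lists, so a boundary that is absent from an earlier list may lie under that list's threshold; this was not tested.

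Intervals in brackets are 95% intervals for counting error only (exact binomial for shares, order statistics for medians). They treat boundaries as independent, although neighbours can share a peak or a domain.

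The distance from late-G1-only boundaries to the nearest older edge varied widely. The members were chosen by this distance, so it is given as a description. Positions in the lists come in 10 kb steps, and the distance to the nearest earlier edge ran from 30 to 2610 kb, with a median of 60 kb and quartiles of 40 and 150 kb. There were 754 boundaries (35.0%) at 30 to 40 kb and 621 (28.8%) at 50 to 90 kb. A further 385 (17.9%) lay 100 to 190 kb away, and 395 (18.3%) at least 200 kb away. Of all 10 kb positions over 20 kb from an earlier edge, the same 4 classes held 19.7%, 35.5%, 22.5% and 22.3%. The nearest earlier edge was in the mid-G1 list for 53.0% of them and in the early-G1 list for 42.0%, ties being counted in each list. The 442 boundaries just inside the threshold, at 30 kb, had late-G1 CTCF within 20 kb in 27.4% of cases and Rad21 in 14.7%. The 928 boundaries just outside it, at 20 kb, had CTCF in 38.9% and Rad21 in 28.0%.

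**Figure D1:**
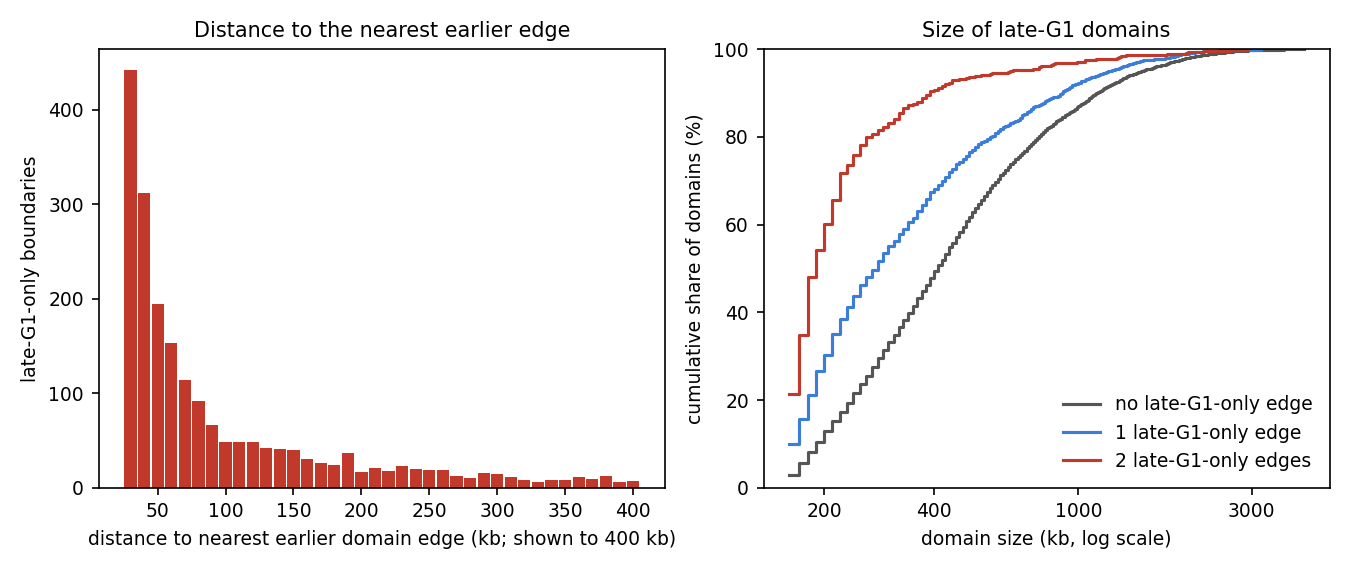
Left, the number of late-G1-only boundaries by distance to the nearest domain edge of any earlier stage in 10 kb steps, shown to 400 kb; the count is highest at 30 kb (442) and falls with distance. Right, the cumulative share of late-G1 domains by size on a log axis for domains with no, 1 or 2 late-G1-only edges, whose medians are 410, 280 and 190 kb.

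Late-G1-only boundaries rarely had CTCF or Rad21 beside them. A late-G1 CTCF peak lay within 20 kb of 514 of the 2155 (23.9%, 22.1 to 25.7), where 56% of all late-G1 boundaries had one, and within 20 kb of 62.0% of the others (61.1 to 62.9). A Rad21 peak lay within 20 kb of 285 (13.2%, 11.8 to 14.7), where 43% of all late-G1 boundaries had one, and of 48.7% of the others. The differences from the other boundaries were -38.2 percentage points for CTCF (-40.1 to -36.1) and -35.5 for Rad21 (-37.1 to -33.7). Neither interval comes near 0.

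The shares fell with the stage at which a boundary was first called. CTCF was within 20 kb of 68.4% of boundaries first called in pro-metaphase, 66.9% of those from ana/telophase, 58.0% from early G1 and 45.9% from mid G1. Against the boundaries from mid G1, the group next in time, late-G1-only boundaries were lower by -22.1 points for CTCF (-25.3 to -18.8) and by -20.5 points for Rad21 (-23.4 to -17.6).

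Of the late-G1-only boundaries, 271 (12.6%; 42.4% of all late-G1 boundaries) had both proteins within 20 kb. CTCF stood without Rad21 at 243 (11.3%; 13.6% of all), and Rad21 without CTCF at 14 (0.650%; 0.679% of all). The remaining 1627 (75.5%; 43.4% of all late-G1 boundaries) had neither. The nearest late-G1 CTCF peak was a median of 82.7 kb away (75.4 to 91.2), against 13.2 kb for the other boundaries and 23.4 kb for those first called in mid G1. For 990 of them (45.9%) no CTCF peak lay within 100 kb, against 10.7% of the other boundaries.

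**Figure D2:**
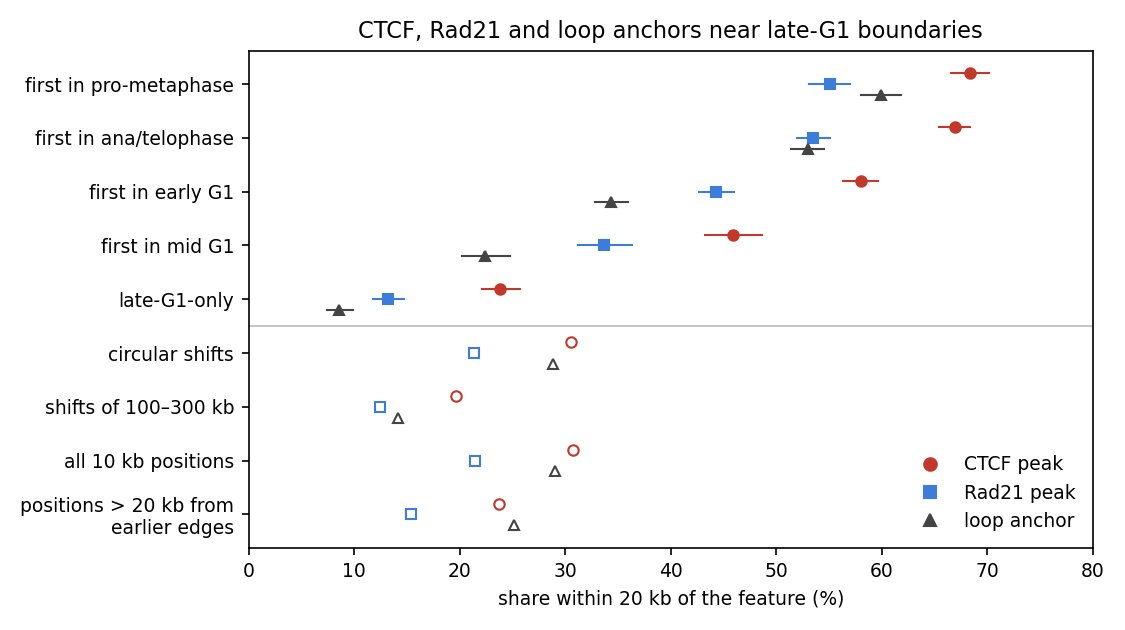
Share of boundaries with a late-G1 CTCF peak (circles), Rad21 peak (squares) or loop anchor (triangles) within 20 kb, by the stage at which the boundary was first called, with exact 95% intervals as lines. Open symbols under the grey line give 4 sets of comparison positions; the late-G1-only CTCF share of 23.9% lies under the circular shifts (30.6%) and above the shifts of 100 to 300 kb (19.6%).

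How this compared with places that are not boundaries depended on where those places lay. Moving the late-G1-only boundaries along their own chromosomes in 100 fixed circular steps put CTCF within 20 kb of 30.6% and Rad21 within 20 kb of 21.4%. The late-G1-only boundaries were lower than these by -6.74 points for CTCF (-8.52 to -4.88) and -8.16 points for Rad21 (-9.56 to -6.66). The interval here is that of the boundary share, the background being taken as fixed. Leaving the mid-G1 list out of the rule adds the 1326 boundaries first called in mid G1, for 3481 in all. Over this larger set the CTCF difference was 1.53 points and the Rad21 difference -0.420 points. Both intervals span 0 (-0.0193 to 3.11 and -1.76 to 0.972).

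Moving the late-G1-only boundaries by only 100, 200 or 300 kb to either side gave 19.6% for CTCF and 12.4% for Rad21. Against this neighbourhood the late-G1-only boundaries were higher for CTCF by 4.23 points (2.44 to 6.09), and for Rad21 the difference was 0.804 points with an interval that spans 0 (-0.598 to 2.31). When those shifted positions also had to be over 20 kb from every earlier edge, as the boundaries do, their shares were 14.2% and 7.95%, and the boundaries were higher by 9.70 and 5.27 points. So late-G1-only boundaries held more CTCF than the sequence around them, in regions that held less than the genome at large.

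Every 10 kb position of the same chromosomes that obeyed the distance rule served as a last background. These 181504 positions were 70.6% of all 257083. CTCF lay within 20 kb of 23.7% of them and Rad21 of 15.4%, so the boundaries differed by 0.132 points for CTCF (-1.65 to 1.99) and by -2.18 points for Rad21 (-3.58 to -0.675).

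The profile by distance was lower throughout than that of boundaries first called in pro-metaphase or in mid G1. Around late-G1-only boundaries there were 0.0893 CTCF summits per 10 kb in the nearest 10 kb, 0.0733 at 10 to 20 kb and 0.0615 at 50 to 60 kb. From 10 to 300 kb the 10 kb steps ranged from 0.0613 to 0.0877, the highest at 270 to 280 kb. Around boundaries first called in pro-metaphase the nearest 10 kb, 10 to 20 kb and 50 to 60 kb gave 0.406, 0.343 and 0.218. Boundaries first called in mid G1 gave 0.201, 0.174 and 0.124. Positions obeying the distance rule gave 0.0929, 0.0961 and 0.119, so late-G1-only boundaries were closest to them in the nearest 10 kb. Rad21 summits around late-G1-only boundaries numbered 0.0439 per 10 kb in the nearest 10 kb, within the 0.0325 to 0.0494 of the steps from 10 to 300 kb. Around boundaries from pro-metaphase there were 0.235 in the nearest 10 kb, and at positions obeying the distance rule 0.0497.

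**Figure D3:**
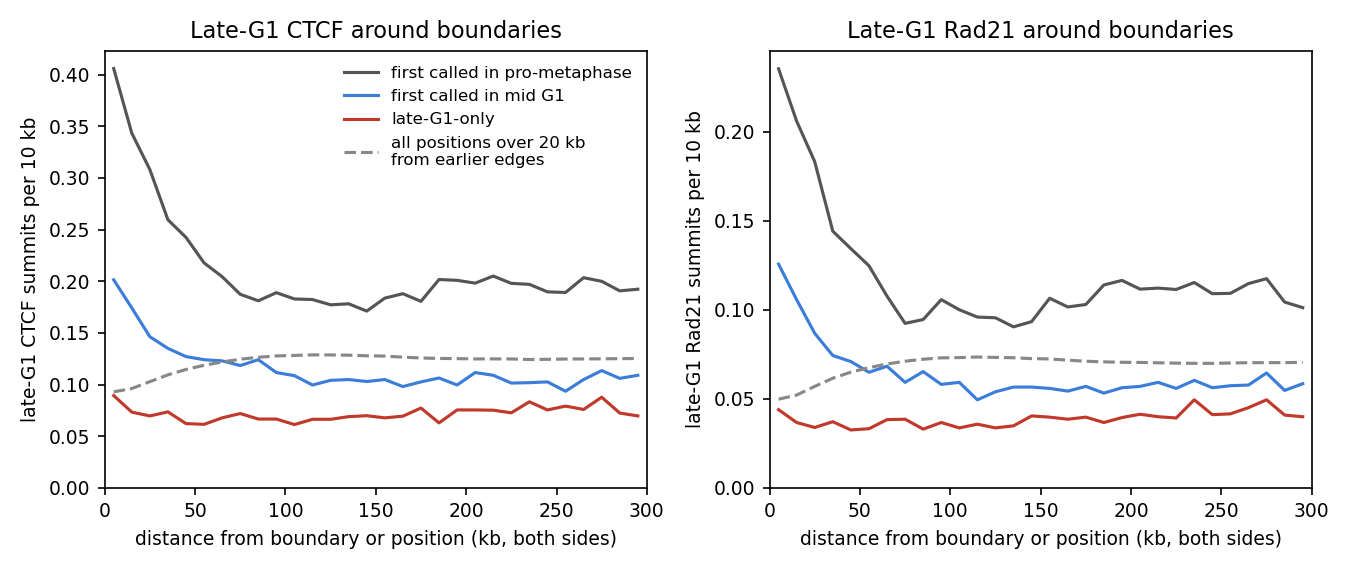
Late-G1 CTCF summits (left) and Rad21 summits (right) per 10 kb of sequence against distance from the boundary, both sides together, with separate vertical scales. Boundaries first called in pro-metaphase and in mid G1 peak near 0, and the late-G1-only line is under both at every distance (0.0893 CTCF summits in the nearest 10 kb, 0.0877 at 270 to 280 kb). The dashed line gives all positions over 20 kb from an earlier edge (0.0929 CTCF summits in the nearest 10 kb).

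The low share went with a low density of CTCF over a much wider area. The median number of late-G1 CTCF peaks within 500 kb was 5 for late-G1-only boundaries (5 to 6), with quartiles of 2 and 11 and a range of 0 to 66. It was 13 for the other boundaries, 18 for those from pro-metaphase, 9 for those from mid G1 and 9 over all 10 kb positions. For Rad21 the medians were 3 for late-G1-only boundaries and 8 for the others. There were 265 late-G1-only boundaries (12.3%) with no CTCF peak within 500 kb, against 2.09% of the other boundaries and 9.14% of all positions. All positions are not held to the distance rule, as late-G1-only boundaries are.

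Boundaries were next classed by the CTCF peaks between 20 and 500 kb away, which leaves out the peaks at the boundary itself. Of the 1649 late-G1 boundaries with 0 to 2 such peaks, 692 (42.0%) were late-G1-only. The share was 24.5% with 3 to 5 peaks, 15.7% with 6 to 10, 8.46% with 11 to 20 and 5.83% with over 20. Late-G1-only boundaries thus made up a larger part of the boundaries where CTCF was sparse. Of all 2155 late-G1-only boundaries, 692 had 0 to 2 CTCF peaks 20 to 500 kb away. This compares with 44551 of the 181504 positions obeying the distance rule.

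Within each of these 5 classes the CTCF share of late-G1-only boundaries lay between that of the other boundaries and that of positions obeying the distance rule. With 0 to 2 peaks the shares were 6.65% of late-G1-only boundaries, 28.5% of the others and 3.47% of positions. With 6 to 10 peaks they were 22.3%, 58.8% and 16.9%. With over 20 peaks they were 72.0%, 81.3% and 58.5%. For Rad21 the late-G1-only boundaries were nearer to the positions, at 12.8% against 10.1% with 6 to 10 peaks, where the others had 46.3%.

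**Figure D4:**
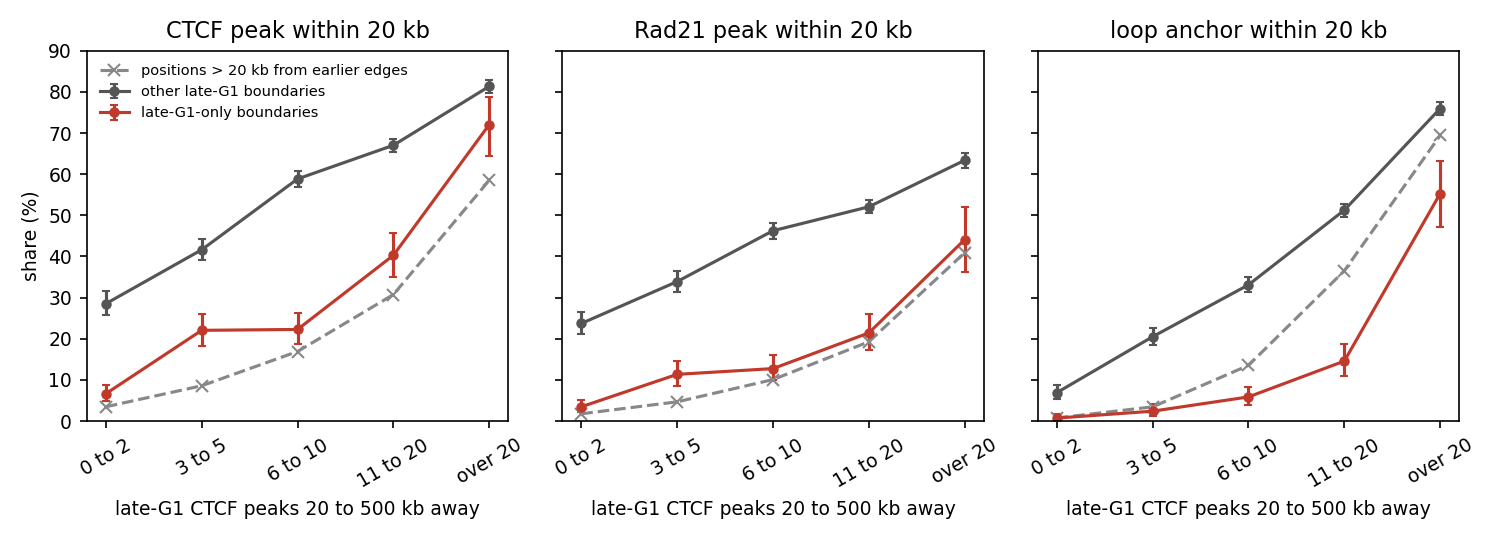
Share with a late-G1 CTCF peak, Rad21 peak or loop anchor within 20 kb, by the number of late-G1 CTCF peaks 20 to 500 kb away, with exact 95% intervals for boundaries. For CTCF the late-G1-only line lies above the dashed line of positions over 20 kb from an earlier edge in all 5 classes (72.0% against 58.5% with over 20 peaks); for loop anchors it lies below that line from 6 to 10 peaks upwards (55.3% against 69.4% with over 20) and within counting error of it with fewer.

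Among themselves the late-G1-only boundaries differed by how far they lay from older edges. CTCF was within 20 kb of 28.8% of those at 30 to 40 kb from an earlier edge and of 26.7% at 50 to 90 kb. It was within 20 kb of 20.8% at 100 to 190 kb and of 12.9% at 200 kb or more. All 10 kb positions of the same 4 distance classes gave 33.6%, 26.1%, 21.9% and 13.1%, so the fall with distance was also that of sequence in general. The median number of CTCF peaks within 500 kb went from 7 in the nearest class to 2 in the farthest.

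They also differed by the size of the smallest domain they bounded. For the 947 that bounded a domain of 160 to 190 kb, CTCF was within 20 kb of 15.1% (12.9 to 17.5), with a median of 3 CTCF peaks within 500 kb. For the 793 at domains of 200 to 390 kb the CTCF share was 27.5% (24.4 to 30.7), and for the 310 at domains of 400 to 1000 kb it was 36.5% (31.1 to 42.1). The 105 whose smallest domain was over 1000 kb gave 38.1% (28.8 to 48.1). For the other boundaries the 4 classes gave 51.1%, 65.7%, 64.0% and 59.1%.

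Some late-G1-only boundaries followed each other directly. Read along the chromosomes, they formed 1197 runs of consecutive boundaries uninterrupted by an older one. There were 727 (33.7%) that stood alone between older boundaries and 624 (29.0%) in runs of 4 or more. Both edges of 1 domain can be neighbours in such a run, and whether runs were longer than their number alone would give was not tested. In those longer runs CTCF was within 20 kb of 13.8% (11.2 to 16.7) and a loop anchor within 20 kb of 2.56%, against 28.0% and 11.04% in shorter runs. The median number of CTCF peaks within 500 kb was 2 in the longer runs and 7 in the shorter.

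The 3 longest runs had 10 boundaries each. On chromosome 17 (mm9, 67390000 to 69280000, each position being the last base before the boundary) the run covered 1890 kb with 2 CTCF peaks and 0 Rad21 peaks. The run on chromosome 2 (64380000 to 66670000) covered 2290 kb with 12 CTCF and 3 Rad21 peaks, and that on chromosome 3 (24350000 to 25610000) covered 1260 kb with 3 CTCF and 2 Rad21 peaks. None of these 30 boundaries had a late-G1 loop anchor within 20 kb.

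CTCF peaks beside late-G1-only boundaries were mostly in earlier lists too, as were late-G1 CTCF peaks in general. With the peak list of each stage in turn, CTCF lay within 20 kb of 10.0% of late-G1-only boundaries in pro-metaphase and 25.3% in ana/telophase. The early, mid and late G1 lists gave 25.0%, 26.2% and 23.9%, and that of asynchronous cells 23.7%. From ana/telophase on, the counting intervals of these shares overlap. Of the 514 boundaries with CTCF in late G1, 40.7% had a CTCF peak within 20 kb in the pro-metaphase list, 85.4% in that or the ana/telophase list, and 98.4% by mid G1. For all late-G1 boundaries with CTCF these shares were 52.3%, 90.7% and 99.2%. Peak by peak, 83.3% of the late-G1 CTCF peaks near late-G1-only boundaries overlapped one in the ana/telophase list, against 82.9% of all late-G1 CTCF peaks.

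Rad21 beside the same boundaries was listed later. Its share was 0.510% with the pro-metaphase list and 6.17% with that of ana/telophase. It was 4.78%, 11.6% and 13.2% with the lists of early, mid and late G1. Of the 285 boundaries with Rad21 in late G1, 32.3% had it by ana/telophase, 42.5% by early G1 and 81.1% by mid G1. For the other boundaries with late-G1 Rad21 these shares were 48.9%, 64.3% and 89.4%. Peak lists of different length do not measure a change in binding, and the Rad21 lists lengthen over the same stages.

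**Figure D5:**
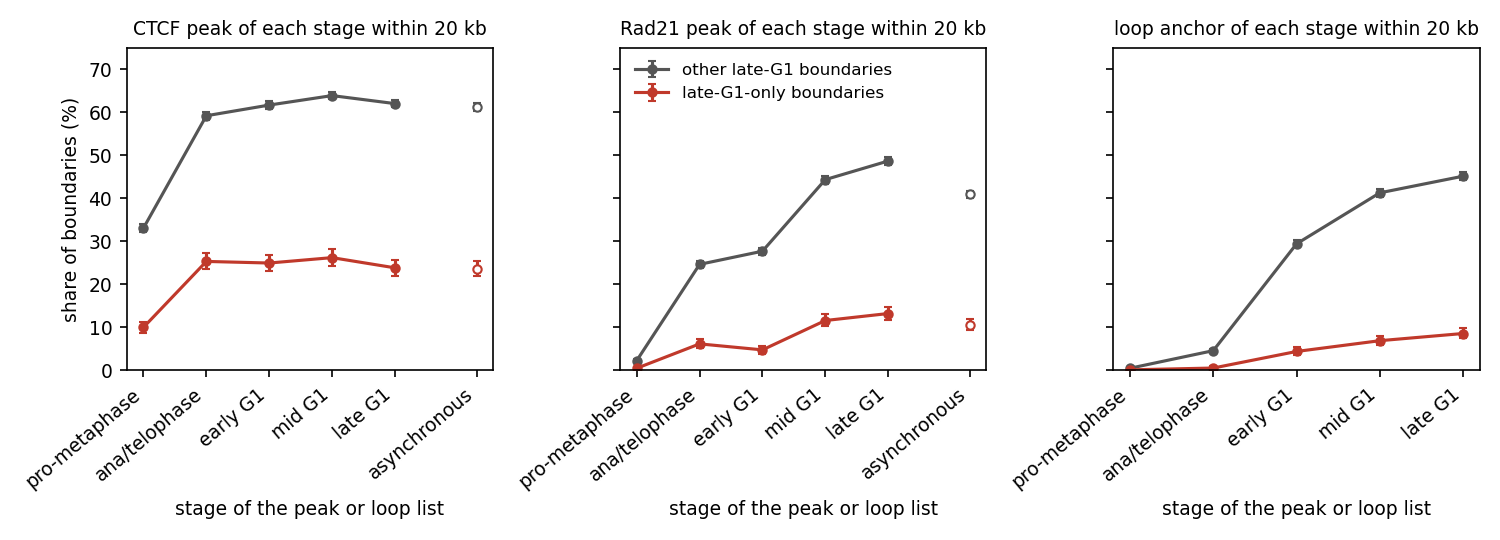
Share of late-G1 boundaries with a CTCF peak, Rad21 peak or loop anchor within 20 kb, taking the list of each stage on the horizontal axis, with exact 95% intervals; open symbols are asynchronous cells. For late-G1-only boundaries the CTCF share is 25.3% in ana/telophase and 23.9% in late G1, while the loop anchor share goes from 0.557% to 8.58%.

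The CTCF peaks that did lie near late-G1-only boundaries had a lower median fold than those near other boundaries. The 658 late-G1 CTCF peaks within 20 kb had a median deposited fold enrichment of 17.0 (15.6 to 17.9), against 20.3 (20.0 to 20.6) for the 9890 near other boundaries. All 33499 late-G1 CTCF peaks had a median of 18.1 (17.8 to 18.2), an interval that overlaps that of the 658. A late-G1 Rad21 peak overlapped 46.7% of the 658 (42.8 to 50.6), against 53.7% of all CTCF peaks and 59.8% of those near other boundaries. The 326 Rad21 peaks near late-G1-only boundaries had a median fold of 8.78, equal to that of all Rad21 peaks, and 94.2% of them overlapped a CTCF peak, against 95.0% of all Rad21 peaks. Of these Rad21 peaks 74.2% overlapped one in the mid-G1 list (69.1 to 78.9), against 77.6% of all Rad21 peaks and 81.6% of those near other boundaries.

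By their role in the domain list, 38.9% of late-G1-only boundaries were only the start of a domain, 39.9% only the end, and 21.2% both (37.4% of the others). They were the edge of just 1 domain in 76.1% of cases, where 58.4% of all late-G1 boundaries were. Another late-G1 domain enclosed 77.2% of them, where 85.3% of all late-G1 boundaries were enclosed. A mid-G1 domain enclosed 69.7% of them, where 84.4% of all late-G1 boundaries and 72.3% of the positions obeying the distance rule were enclosed. Domains, loops and stripes come from the same contact maps as the rule, so all such values are descriptions.

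The 652 late-G1-only boundaries outside every mid-G1 domain had CTCF within 20 kb in 15.3% of cases (12.7 to 18.3), with a median of 2 CTCF peaks within 500 kb. The 1503 inside a mid-G1 domain had CTCF in 27.5% (25.3 to 29.9), with a median of 7.

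Domains bounded by late-G1-only boundaries were small. Of the 10899 late-G1 domains, 8728 had no such edge, 1609 had 1 and 562 had 2. The smallest domain in the list was 160 kb. Median sizes were 410 kb (400 to 420) with no late-G1-only edge, 280 kb (260 to 290) with 1 and 190 kb (180 to 190) with 2. Domains of 160 to 190 kb, at the bottom of the listed range, made up 10.4%, 26.7% and 54.3% of these groups.

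Nesting differed much less than size. Of all late-G1 domains 34.6% lay in no larger domain, and the shares were 35.2%, 31.0% and 35.9% for domains with no, 1 and 2 late-G1-only edges. The median number of larger domains around a domain was 1 in all 3 groups. Whole containment in a mid-G1 domain did differ, at 89.99% with no late-G1-only edge, 67.9% with 1 and 48.9% with 2. In the domains with 1 late-G1-only edge, the other edge had been called in pro-metaphase in 18.8% of cases, first in ana/telophase in 31.3%, first in early G1 in 32.1% and first in mid G1 in 17.8%.

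Loops joining both edges of a domain were rare where an edge was late-G1-only. A late-G1 loop joined both edges, each within 20 kb, in 12.1% of all late-G1 domains and in 14.4% of those with no late-G1-only edge (13.6 to 15.1). It did so in 63 of 1609 domains (3.92%, 3.02 to 4.98) with 1 late-G1-only edge. It did so in 0 of the 562 with 2. The share that a count of 0 allows, taken as 3 divided by the number of domains, is up to 0.534%. At the same domain size of 160 to 190 kb the shares were 16.6% with no late-G1-only edge and 3.96% with 1. With 2 it was 0 of 305, where the limit taken in the same way is 0.984%.

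The largest and smallest domains with 2 late-G1-only edges show the range. The largest was on chromosome 15 (mm9, 21510001 to 24440000, 2930 kb) and held 5 late-G1 CTCF peaks. The next were on chromosome 8 (48760001 to 51390000, 2630 kb, 16 CTCF peaks) and chromosome 5 (5820001 to 8040000, 2220 kb, 4 CTCF peaks). The smallest size, 160 kb, was shared by 120 domains. The first 3 of these by chromosome and position lay on chromosome 1 at 32850001 to 33010000, 48700001 to 48860000 and 49150001 to 49310000. Each of these 3 held 0 late-G1 CTCF peaks. None of these 6 domains lay in a larger one.

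Anchors of late-G1 loops were scarcer at late-G1-only boundaries than at other boundaries and at all 4 sets of comparison positions. An anchor lay within 20 kb of 185 (8.58%, 7.44 to 9.85), where 39.3% of all late-G1 boundaries had one, and of 45.1% of the other boundaries. Circular shifts gave 28.9%, shifts by 100 to 300 kb 14.1%, the same shifts restricted by the distance rule 11.1%, and all positions obeying that rule 25.2%. In the CTCF density class with 6 to 10 peaks, an anchor was near 5.87% of late-G1-only boundaries, 33.1% of the others and 13.5% of positions obeying the rule. With more peaks, late-G1-only boundaries were again lower than positions, at 14.6% against 36.5% and 55.3% against 69.4%. With fewer peaks they were within counting error of positions. In the class with the fewest, the 692 boundaries had 0.723% (0.235 to 1.68) against 0.756% of positions. In the next class, the 458 boundaries had 2.40% (1.20 to 4.26) against 3.45%. CTCF, Rad21 and a loop anchor came together within 20 kb at 104 late-G1-only boundaries (4.83%), against 32.3% of the others.

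Anchors of stripes, lines of contact that run from an anchor along the map, lay within 20 kb of 14 late-G1-only boundaries (0.650%). The share was 10.9% of all late-G1 boundaries and 12.9% of the others.

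Loops that did reach late-G1-only boundaries did not differ from other loops in contact ratio beyond counting error. The 304 late-G1 loops with an anchor within 20 kb had a median observed/expected contact ratio of 3.57 (3.35 to 3.83), against 3.63 for the 6450 with an anchor near other boundaries. Only 2 of the 304 had both anchors near late-G1-only boundaries. A loop with both anchors within 20 kb was in the mid-G1 list for 68.4% of the 304 (62.9 to 73.6) and in the early-G1 list for 45.7%, against 80.4% and 59.8% of the others.

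The pattern was similar from chromosome to chromosome. Late-G1-only boundaries made up from 11.8% (chromosome 13) to 21.5% (chromosome 3) of late-G1 boundaries. Their CTCF share was lower than that of the other boundaries on 20 of 20 chromosomes. It was lower than that of circular shifts on 18 of 20, and higher than that of shifts by 100 to 300 kb on 17 of 20. The exceptions to the circular shifts were chromosome 12 (30.8% against 26.4%) and chromosome X (25.7% against 16.0%). Chromosome X was also the only one where the median number of CTCF peaks within 500 kb was no lower at late-G1-only boundaries than over all positions, at 4 against 3.

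Individual regions show both ends of the range. Among late-G1-only boundaries with both proteins, the strongest late-G1 CTCF peak was beside the boundary at 115070000 on chromosome 5, 50 kb from the nearest earlier edge. That peak (115058525 to 115058904) had a fold of 50.5, and the strongest CTCF peak within 20 kb in the pro-metaphase list had a fold of 44.9. The strongest Rad21 peak within 20 kb of the boundary (115089373 to 115089707) had a fold of 18.3 in the late-G1 list and did not overlap that CTCF peak. Other late-G1 peaks lay nearer to the boundary, the nearest CTCF peak at 0.311 kb and the nearest Rad21 peak at 0.411 kb. This boundary was the start of a single 940 kb domain, with 48 CTCF peaks within 500 kb.

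The boundary at 66600000 on chromosome 14 had the next strongest CTCF peak (66600861 to 66601368), with a fold of 50.3 in late G1 and 56.8 in pro-metaphase for the strongest peak within 20 kb. Its strongest Rad21 peak (66586936 to 66587582), which did not overlap that CTCF peak, had a fold of 28.7 in late G1. Another late-G1 Rad21 peak lay nearer, 1.02 kb from the boundary, where the CTCF peak lay 0.86 kb away. The pro-metaphase list had no Rad21 peak within 20 kb. It lay 140 kb from the nearest earlier edge. The other 3 of the 5 with the strongest CTCF were at 42160000 on chromosome 16, 58100000 on chromosome 1 and 65850000 on chromosome 15, with late-G1 CTCF folds of 48.1, 45.7 and 45.1. All 5 had CTCF within 20 kb in the pro-metaphase list.

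The boundaries farthest from any earlier edge were on chromosome X. The 4 at 77990000, 78000000, 78190000 and 78420000 lay 2180 to 2610 kb from an earlier edge and 2613 to 2843 kb from the nearest late-G1 CTCF peak. The fifth, at 63660000, lay 1270 kb from an earlier edge and 672 kb from CTCF. The boundary farthest from CTCF, at 30490000 on chromosome X, was 2863 kb from a peak but 140 kb from an earlier edge. None of these 6 had a CTCF or Rad21 peak within 500 kb.

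The late-G1-only boundary with the strongest loop was at 22840000 on chromosome 5. An anchor at 22820001 to 22840000 was joined to 28270001 to 28290000, 5450 kb away, with an observed contact of 21.9 over an expected 0.324, a ratio of 67.6. The upper quartile of loop distance among the 304 loops was 300 kb, and the small expected value enters the ratio directly. No CTCF peak lay within 20 kb of this boundary, the nearest being 48.9 kb away. The other 4 by this measure lay on chromosomes 1 (92510000), 8 (66330000) and 12 (25420000 and 25450000), with ratios of 13.7, 13.3 and, for 1 loop shared by the last pair, 11.9. Of these 5 boundaries only that at 25420000 had late-G1 CTCF and Rad21 within 20 kb. At 92510000, 25450000 and 66330000 the nearest CTCF peak lay just beyond that limit, 20.2, 23.2 and 26.3 kb away. The nearest Rad21 peak there lay 20.3, 23.3 and 26.2 kb away.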

How the data were processed

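CTCF and Rad21 ChIP-seq and in situ Hi-C of sorted G1E-ER4 cells were used, grouped by assay, target and stage from the sample titles. Capture-C, Pol II and input samples were not used here. Per the submitters' processing notes, the build was mm9, the Hi-C tools include HiC-Pro and Bowtie2, and the ChIP-seq tools include MACS2 2.1.0, bedtools 2.27.1, Bowtie 0.12.7 and SAMtools 1.7. The sources used here do not name the callers of stripes, loops or domains. Peak lists merge and downsample the replicates, per the deposited peak names.

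Each peak has a deposited score, a deposited fold enrichment (a ratio), a deposited −log10 p and a deposited −log10 q. Loop lists give an observed and an expected contact signal and a p-value, per the file headers, with no word on how that signal was normalized. Stripe lists give a deposited ratio as strength, which was not used. Domain lists give coordinates in 10 kb bins. No list gives read totals, so depth is unknown.

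Distances were measured from the boundary to the nearest base of a peak or anchor, and density counted summits. Circular shifts moved each boundary by fixed fractions of its chromosome's covered span, 100 times. Python 3.11.15, NumPy 2.4.6, pandas 2.3.3, SciPy 1.17.1 and Matplotlib 3.10.9 were used. Functions for distances and overlaps were tested on simulated intervals and against bedtools 2.31.1 and passed 6 of 6 tests. Differences between groups of boundaries have Newcombe intervals.

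The members, measures and comparison groups were chosen with earlier results of these data known. Regions were named by fixed ranks: the 5 strongest CTCF peaks with Rad21 also within 20 kb, the 5 boundaries farthest from an earlier edge, the 5 farthest from CTCF, the 3 largest and 3 smallest domains with 2 late-G1-only edges, the 5 strongest loops and the 3 longest runs, with ties taken by chromosome and position. No mm9 genome or annotation was used, so no sequences or gene names are given. Alternatives covered the matching distance, the distance to a peak, peak thresholds, the lists used and the background positions.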

Additional observations from a re-analysis of the deposited data

How the results depend on the processing

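Of 53 pairs of a result and an alternative setting, 15 left the result the same, 32 moved it and 6 turned its direction. Direction went by the sign of the value alone, whatever its interval. The same meant within the error of the main value. The number of boundaries has no such error, and there it meant within a fixed ratio of the main count. The number of late-G1-only boundaries was 1401 when edges were matched within 40 kb, 809 for domains in no larger domain and 3481 without the mid-G1 list. It was 3083 with 10 kb matching, and 2801, 2338 and 2243 without the early-G1, ana/telophase and pro-metaphase lists, all counted as the same. The CTCF difference from circular shifts was -2.34 points with 10 kb matching, -9.01 with 40 kb matching, -3.86 and -8.63 with peaks within 10 and 40 kb, and -12.9 for boundaries at least 100 kb from an earlier edge. It turned to 1.53 without the mid-G1 list, 4.23 against local shifts, 0.132 against positions obeying the distance rule and 9.70 against local shifts obeying it. The intervals of 1.53 and 0.132 span 0. The Rad21 difference was -3.78 and -9.59 with 10 and 40 kb matching, -0.420 without the mid-G1 list, -4.32 and -11.8 with peaks within 10 and 40 kb, -2.18 against positions obeying the rule, -5.52 with a −log10 q of at least 20, -4.80 with a fold of at least 10, -5.98 with asynchronous peaks and -12.1 for boundaries at least 100 kb away. It turned to 0.804 against local shifts, with an interval that spans 0, and to 5.27 against local shifts obeying the rule. The loop anchor difference was -17.7 and -22.2 with 10 and 40 kb matching, -17.7 and -23.6 with anchors within 10 and 40 kb, -5.54 against local shifts, -16.6 against positions obeying the rule and -2.50 against local shifts obeying it. The median number of CTCF peaks within 500 kb was 4 with 40 kb matching. It was 4 and 7 when scaled to that distance from counts within 250 and 1000 kb. The median size of domains with such an edge, 240 kb, became 260 and 210 kb with 10 and 40 kb matching and 190 kb with both edges required, where 35.9% lay in no larger domain. The local shifts that obey the rule, the limit of 100 kb from earlier edges and leaving out chromosome X were chosen after seeing the data; without chromosome X the CTCF difference was -7.58 points. Beyond the changed positions or lists themselves, the cause of each change was not tested. No paired analysis was possible because every list pools its replicates and no result comes from a test, and for the same reason no replicate could be left out.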

Other observations

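Late-G1-only boundaries that were both the start and the end of late-G1 domains had a CTCF share whose interval overlapped that of the rest. For the 457 of them, CTCF lay within 20 kb of 26.9% (22.9 to 31.2) and Rad21 of 15.1%. For the 1698 that were only a start or only an end, the shares were 23.0% (21.04 to 25.1) and 12.7%. Among the other late-G1 boundaries CTCF was within 20 kb of 67.5% of those that were both and of 58.7% of those that were not.

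Chromosome 12 had the highest Rad21 share at late-G1-only boundaries, 19.2%, and chromosome 15 the lowest, 7.04%. Chromosome X had 105 late-G1-only boundaries and the lowest CTCF share at the other boundaries, 52.4%.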
